A study of Mus musculus with 12 samples.

Results

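Small nucleolar RNAs (snoRNAs) and small Cajal body RNAs are short noncoding RNAs that pair with other RNAs and direct their chemical modification. Box C/D snoRNAs (gene names starting with Snord) carry a C box near the 5′ end and a D box near the 3′ end, and with fibrillarin, Nop56, Nop58 and Snu13 guide 2′-O-methylation, mostly of ribosomal RNA. Box H/ACA snoRNAs (Snora) end a few bases after an ACA triplet and, with dyskerin (Dkc1), Nop10, Nhp2 and Gar1, guide the change of uridine to pseudouridine. The Cajal body RNAs (Scarna) act on spliceosomal RNAs in a nuclear body. In mammals most of them lie in introns of other genes, many of which encode ribosomal proteins or are noncoding host RNAs such as Gas5 and the Snhg genes, and are cut out of the host's transcript.

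The genes described here are the rows of the deposited expression table named Snord, Snora or Scarna that reached at least 1 RPKM (reads scaled to the length of the gene and to the assigned reads of the library) in 3 or more of the 12 labelled libraries. There were 73 of them, among 126 rows with such a name and 34348 rows in all: 49 box C/D genes of 78, 22 box H/ACA genes of 39 and 2 Cajal body RNA genes of 9. Of the 53 rows that were left out, 30 had no library at 1 RPKM, 11 had 1 and 12 had 2. The genes were thus chosen by their measured RPKM in all 12 libraries, so that they are detected is not a result. The rule did not use the group labels, but a gene could enter through 1 group: 6 genes reached 1 RPKM in no liver library and 2 in no intestinal library, and 17 had fewer than 3 PBS libraries at that level. The 4 genes just inside the rule (Snora62, Snord14a, Snord50b and Snord82) averaged 0.564 to 0.776 RPKM over the 12 libraries, and the 12 rows just outside it 0.2497 to 0.779, so both sets lie at a like level.

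The libraries came from small intestine and liver of C57BL/6 mice given PBS (phosphate-buffered saline, the control) or LCWE, with 3 libraries in each of 4 groups. LCWE is the usual abbreviation for Lactobacillus casei cell wall extract, which is used in mice as a model of Kawasaki disease vasculitis. The sources used here give no dose, route, time after treatment, age or sex. The authors' own comparison table heads its columns LCWECFA and does not explain CFA. The labels do not say whether the libraries of a group are separate animals, so a p-value measures the spread between these libraries, which may be technical. Assigned reads ranged from 30294594 to 44921885 per library. The labelled tissues matched their markers: Alb, the plasma albumin of hepatocytes, was at 10519 to 23556 RPKM in liver and 51.6 to 145 in intestine, and Fabp2, the intestinal fatty acid binding protein, was at 676 to 9408 RPKM in intestine and 38.6 to 113 in liver.

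The sequences of the genes on which the results turn are shown here, since members of 1 family can be nearly the same and share reads. They were read from the GENCODE M21 transcripts (mm10), where all 73 genes were found by symbol at the table's position. Capitals mark the C box (TGATG within the first 15 bases) and the D box (CTGA within the last 15 bases) of the box C/D RNAs, and the ACA within the last 8 bases of the box H/ACA RNAs, searched on the gene's own strand only.
Snord96a: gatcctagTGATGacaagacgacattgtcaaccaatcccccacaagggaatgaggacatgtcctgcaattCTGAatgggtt
Snord35a: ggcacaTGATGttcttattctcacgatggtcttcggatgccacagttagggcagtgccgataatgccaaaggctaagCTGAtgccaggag
Snord14c: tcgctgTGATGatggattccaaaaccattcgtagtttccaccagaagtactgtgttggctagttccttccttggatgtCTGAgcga
Snord14d: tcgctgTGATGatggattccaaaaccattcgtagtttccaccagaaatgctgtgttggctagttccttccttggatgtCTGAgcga
Snord123: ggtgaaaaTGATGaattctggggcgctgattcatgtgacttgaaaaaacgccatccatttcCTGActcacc
Snora20: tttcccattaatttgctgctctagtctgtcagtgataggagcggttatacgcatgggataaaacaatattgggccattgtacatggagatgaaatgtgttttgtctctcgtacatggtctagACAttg
Snora65: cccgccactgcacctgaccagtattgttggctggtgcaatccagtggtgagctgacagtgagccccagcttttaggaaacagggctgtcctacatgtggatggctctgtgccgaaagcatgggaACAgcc
Snora24: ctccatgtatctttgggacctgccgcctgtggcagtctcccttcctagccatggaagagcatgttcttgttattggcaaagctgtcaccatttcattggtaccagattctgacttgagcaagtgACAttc

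Both boxes stood in 40 of the 47 box C/D genes whose sequence was read (85.1%), and the ACA in 19 of 21 box H/ACA genes (90.5%). Among 3653 other short transcripts of 60 to 200 bases, 3 (0.0821%) held both boxes and 450 (12.3%) the ACA. The windows were widened after some sequences had been seen. Snord14c and Snord14d, both in the chaperone gene Hspa8, are identical at 84 of 86 bases (97.7%), so that their reads may have been split or dropped between the copies.

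These are short genes with few reads. They were 64 to 414 bases long, with a median of 86 bases, 77 for the box C/D and 130.5 for the box H/ACA genes. The reads of a gene in a library had a median of 9 and a maximum of 196, and 469 of the 876 values (53.5%) rested on fewer than 10 reads. In a gene of 100 bases 1 read was worth 0.223 to 0.330 RPKM. There were no reads for 72 of the 876 values, and 44 genes had reads in all 12 libraries. Within a group, the log2 levels of the 73 genes correlated between libraries with r from 0.733 to 0.889, against 0.980 to 0.992 over all rows of the table, where the points share library and depth. The range over all rows also takes in rows too low to be tested and a wider span of levels. It is thus not a like measure for the 73 genes. The sources used here do not say whether fragments this short were kept in the library preparation, or whether poly(A) RNA was selected.

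Of the 73 genes, 68 lie within another row on the same strand: 24 in a ribosomal protein gene, 17 in a noncoding host and 27 in another gene, with 49 different hosts. The position of 35 lies wholly inside an annotated exon of a row on the same strand, as where an intron is kept in a host transcript, and all 35 had reads. For these, reads of the snoRNA and of the host's transcript cannot be told apart. A further 34 genes overlapped no exon on either strand.

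Box C/D genes made up most of the summed level in each group. Over all 73 genes the summed RPKM in PBS intestine was 393, 411 and 401, and in LCWE intestine 371, 466 and 574. In PBS liver it was 254, 333 and 330, and in LCWE liver 287, 271 and 240. The groups of 1 tissue overlapped, and on the RPKM scale each intestinal library was above each liver library. The mean was 1.17 times as high with LCWE as with PBS in intestine, and 0.870 times as high in liver. In PBS libraries the liver sum was 0.761 times the intestinal one, a log2 difference of -0.39 that turned to 0.41 when libraries were scaled by median ratios to a common reference, so no direction between tissues is given for the sum. The box C/D genes summed to 284 ± 7.77 RPKM (SD, n = 3) in PBS intestine and 202 ± 28.1 in PBS liver, the box H/ACA genes to 116 ± 10.6 and 101 ± 19.3, and the 2 Cajal body RNA genes to 1.83 ± 0.743 and 2.54 ± 1.73.

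**Figure D1:**
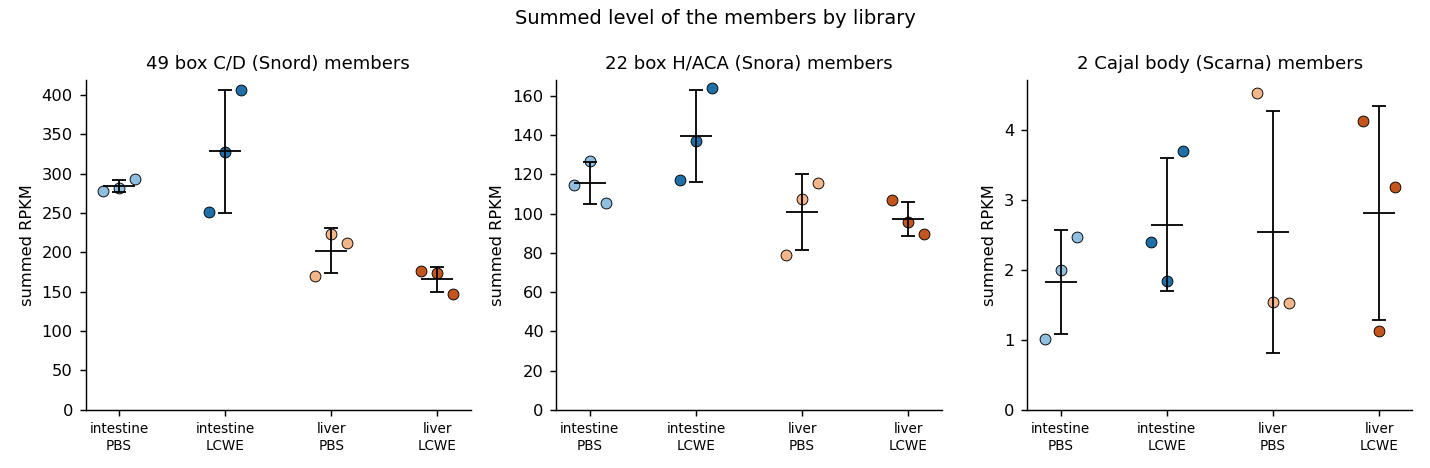
Summed RPKM of the box C/D, box H/ACA and Cajal body RNA genes in each library (points, n = 3 per group, with mean and SD as bars). LCWE intestine is the most scattered group for the box C/D and box H/ACA genes, and PBS liver for the Cajal body RNA genes. Added over the classes, the LCWE intestine libraries run from 371 to 574 RPKM, and liver box C/D sums lie between 147 and 224.

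A few genes carried much of the level. The 10 highest held 49.6% of the summed RPKM in PBS intestine and 52.6% in PBS liver. Snord96a, in the ribosomal scaffold gene Rack1 (chr11:48802032-48802112, + strand), was the highest in intestine, with 35.2, 40.9 and 24.0 RPKM with PBS and 29.4, 53.7 and 61.2 with LCWE. In liver it was at 17.1, 17.9 and 25.7 with PBS and 22.4, 19.2 and 17.1 with LCWE, so that the PBS groups of the 2 tissues overlapped. Snora65, in Rpl12 (chr2:32963291-32963420, + strand), was second in intestine with LCWE, at 23.1, 28.8 and 36.8 RPKM against 21.4, 29.5 and 23.4 with PBS. In PBS liver Snora65 was at 10.5, 11.2 and 11.9 RPKM, below each intestinal library. Snord2, in the translation initiation factor gene Eif4a2 (chr16:23108953-23109021, + strand), was at 30.0, 25.3 and 28.2 RPKM in PBS intestine and at 6.49, 10.5 and 6.63 in PBS liver. The next of the 10 by the median of the group means were Snord14d, Snord35a, Snord14e, Snora20, Snora61, Snord57 and Snord22. At the low end, Snord72, in Rpl37, had 1.29, 0.771 and 0 RPKM in PBS intestine.

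**Figure D2:**
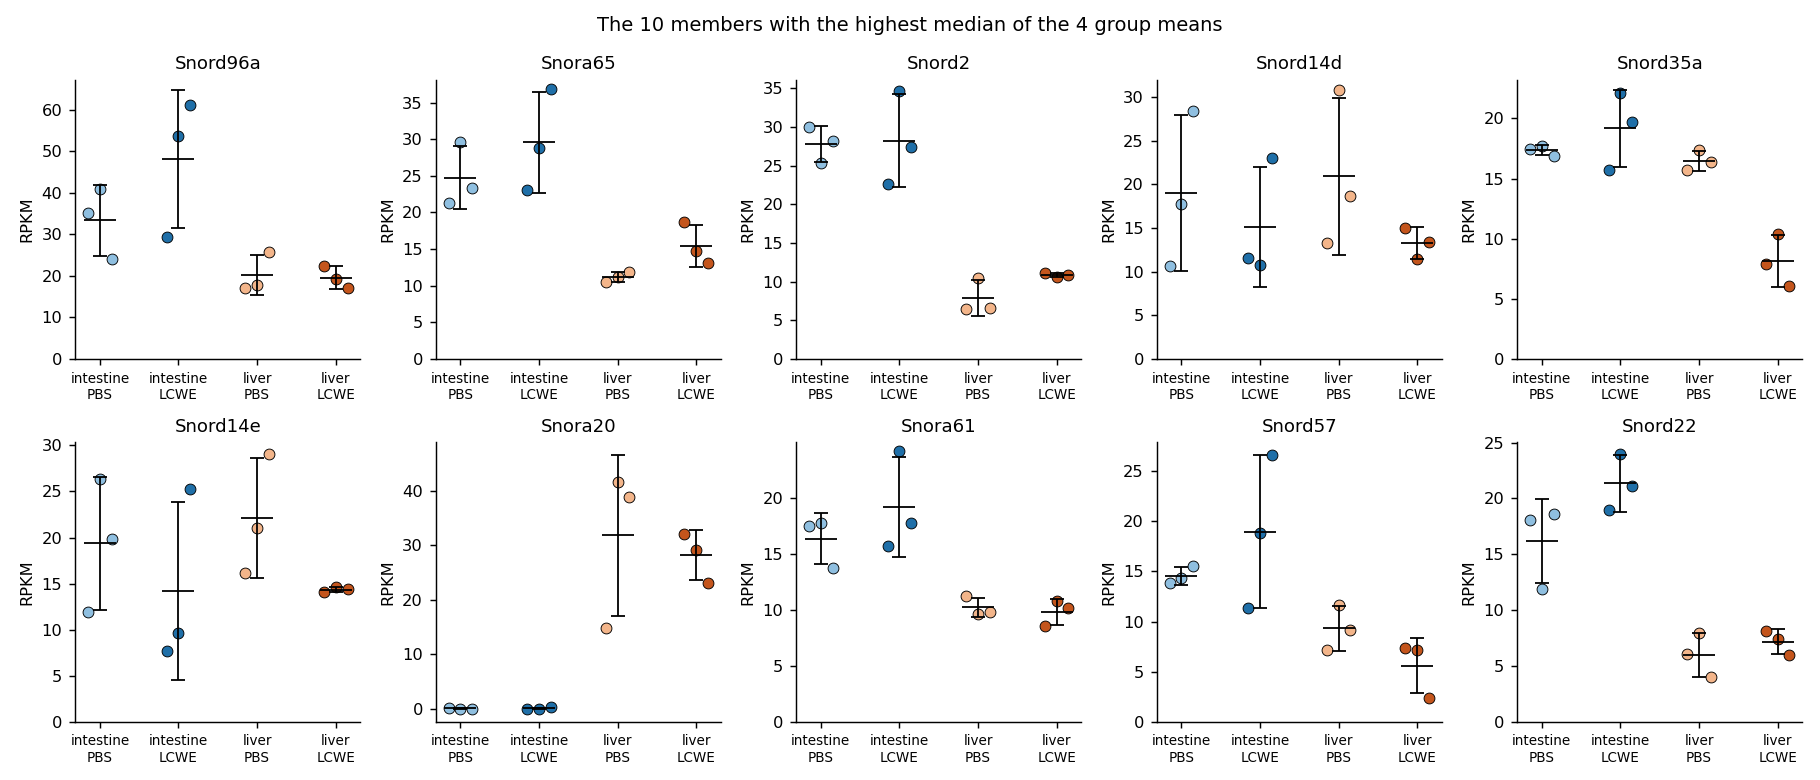
RPKM of the 10 genes with the highest median of the 4 group means, by library (points, n = 3 per group, with mean and SD as bars; the position of a point within a group has no meaning). Snord35a is lower in the LCWE liver libraries, at 6.08 to 10.4, than in all others, and Snora20 has almost no reads in intestine.

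Genes of 1 host did not stand at 1 level. There were 14 hosts with 2 or 3 of the genes, 33 genes in all, and the highest gene of a host was 1.01 to 25.5 times the lowest by the mean over 12 libraries, with a median of 3.21. In Rack1, Snord96a averaged 30.3 RPKM and Snord95 1.19. In Gas5, Snord78 averaged 7.27 and Snord47 0.944, and in Rpl13a, Snord35a averaged 15.3 and Snord34 2.30. In the noncoding host 2410006H16Rik the pair Snord49a and Snord49b averaged 5.83 and 5.87 over the 12 libraries, but the order changed with the group, at 8.51 and 6.57 in PBS intestine and 2.10 and 3.58 in LCWE liver.

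In liver, 1 gene fell with LCWE. Snord35a lies in an intron of Rpl13a, the gene of a ribosomal protein of the large subunit (chr7:45126346-45126435, - strand), and overlaps no exon. It was at 15.7, 17.4 and 16.4 RPKM in the PBS livers, from 63, 56 and 58 reads. In the LCWE livers it was at 7.91, 10.4 and 6.08 RPKM, from 27, 42 and 19 reads. Each LCWE liver was below each PBS liver, and below each of the 6 intestinal libraries, which were at 15.7 to 22.1. The change was -1.01 on the log2(RPKM + 0.5) scale (SE 0.19), a fall to 0.498 times, with an adjusted p of 0.0379 (limma, two-sided, Benjamini-Hochberg over the 14404 genes tested). Its host did not move with it: Rpl13a was at 187, 133 and 154 RPKM with PBS and 146, 154 and 166 with LCWE (log2 change -0.01, adjusted p = 0.983, limma). Snord33 and Snord34, elsewhere in Rpl13a, changed by -0.26 and -0.30 with adjusted p of 0.731 and 0.629 (limma). Their 95% intervals ran from -1.07 to 0.55 and from -0.98 to 0.38. That of Snord33 takes in the change of Snord35a, and that of Snord34 ends close to it. These values thus cannot tell whether the fall is particular to Snord35a within Rpl13a.

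The call on Snord35a is close to the threshold. It held in 8 of 16 other analyses, with adjusted p from 0.00491 to 0.358 (limma) and a log2 change from -1.19 to -0.83. It was lost with voom on recovered reads (0.0825), with no filter (0.0762), without LCWE liver 1 (0.153), 2 (0.0535) or 4 (0.0682), and without PBS liver 3 (0.127) or 4 (0.104), all adjusted p from limma. Blocking on the replicate number, which may or may not pair the libraries, gave an adjusted p of 0.358 (limma).

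That call was 1 of the 66 genes with enough signal for the test in liver, or 1.52%, against 4.04% of all 14404 tested genes called in either direction, 3.39% higher and 0.646% lower. The share is below the background for both directions together, and 1 call is no result about the set. Without PBS liver 2 there were 3 calls, all lower: Snord35a, Snord14e (adjusted p = 0.0369, limma) and Snord66 (adjusted p = 0.0225, limma). That fit called 943 genes over all genes, more than the main fit, so the 3 are no result about the set either. Of the 66, 27 had a higher and 39 a lower mean with LCWE, and their median log2 change was -0.06 against 0.06 over all tested genes. The LCWE and PBS livers did not overlap for 4 genes higher and 3 lower (10.6%), against 27.5% of all tested genes, 18.7% higher and 8.84% lower, and 15.9% of other rows of at most 300 bases. By class, the median change was -0.15 for 44 box C/D genes and -0.05 for 21 box H/ACA genes. The median half-width of the 95% interval of a gene was a factor of 1.87. The interval lay within a factor of 2 either way for 20 of the 66. These widths hold the spread between 3 libraries per group as well as the few reads of a gene.

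Further genes with the smallest p in liver did not pass the test. Snora65 was at 18.6, 14.7 and 13.1 RPKM with LCWE, above all 3 PBS livers (log2 change 0.44, adjusted p = 0.170, limma). Snord2 was at 11.1, 10.6 and 10.8 RPKM with LCWE, also above each PBS liver (0.47, adjusted p = 0.238, limma). Snord78, in the noncoding growth-arrest RNA Gas5, was at 5.43, 1.69 and 4.62 RPKM with PBS and 7.99, 7.42 and 6.11 with LCWE (0.91, adjusted p = 0.244, limma). Snora34 was at 0 to 0.607 RPKM with PBS and 0.626 to 1.53 with LCWE (0.84, adjusted p = 0.274, limma). Snora28, in the initiation factor gene Eif5, went from 1.40 to 1.76 RPKM with PBS to 0.907 to 1.23 with LCWE (-0.38, adjusted p = 0.206, limma), on 4 to 8 reads per library. Snord4a went from 12.6, 5.11 and 7.52 RPKM to 5.57, 3.14 and 4.05 (-0.85, adjusted p = 0.231, limma), and its groups overlapped.

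The 3 genes in Hspa8, which encodes a constitutive heat shock chaperone, had lower means with LCWE in liver while the host's mean was higher. Snord14e was at 16.2, 21.1 and 29.1 RPKM with PBS and 14.1, 14.6 and 14.4 with LCWE, and the groups did not overlap. Snord14d was at 13.3, 30.8 and 18.6 with PBS and 15.01, 11.4 and 13.4 with LCWE, and Snord14c at 4.95, 11.4 and 7.69 against 4.90, 2.07 and 5.69, both with overlap. The log2 changes were -0.57, -0.56 and -0.87, with adjusted p of 0.196, 0.365 and 0.310 (limma), so none passed. Hspa8 itself was at 534, 533 and 812 RPKM with PBS and 986, 1060 and 1054 with LCWE, a log2 change of 0.75 that did not pass either (adjusted p = 0.0737, limma). The directions were the same in intestine, where Snord14e, Snord14d and Snord14c changed by -0.55, -0.30 and -0.82 and Hspa8 by 0.76. None of these passed (limma). All 3 snoRNA genes lie inside an annotated Hspa8 exon, so reads of the 2 kinds cannot be told apart, and Snord14c and Snord14d can share reads.

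**Figure D3:**
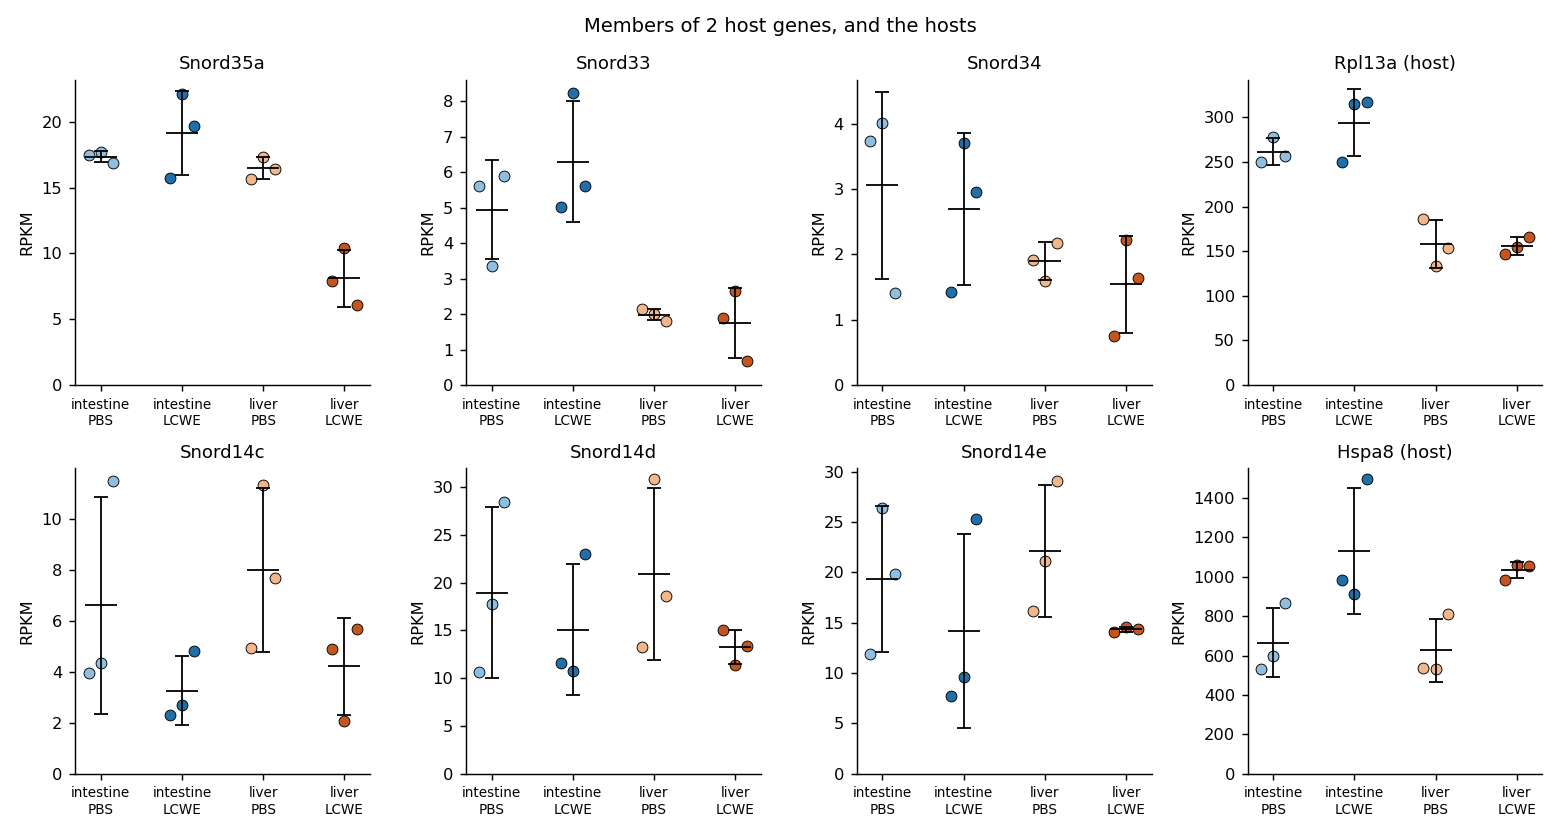
RPKM by library (points, n = 3 per group, with mean and SD as bars) of the genes in Rpl13a (upper row) and Hspa8 (lower row), with the host at the right. In liver Snord35a falls from 15.7 to 17.4 with PBS to 6.08 to 10.4 with LCWE while Rpl13a overlaps between groups, and the Snord14 means are lower where that of Hspa8 is higher.

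In intestine no gene passed the test with LCWE, 0 of 71 in limma and 0 in voom, against 0% of all 17510 genes tested in limma. At an unadjusted p below 0.05 there were 9 of the 71 in limma, 8 higher and 1 lower, and 2 in voom. The share of all 17510 genes below that p is not given here, so the 9 are not read as an excess. Of the 71, 48 had a higher and 23 a lower mean, with a median log2 change of 0.23 against 0.11 over all tested genes. The groups did not overlap for 8 genes higher and 1 lower (12.7%), against 19.3% of all tested genes, 13.2% higher and 6.15% lower, and 12.4% of other short rows. LCWE library 4 was the highest of its group in 40 of the 73 genes and library 1 the lowest in 36, while in LCWE liver library 1 was the highest in 35 and library 4 the lowest in 36. The enterocyte markers differed in mean in the same libraries. All 7 had a lower mean with LCWE, 4 with an unadjusted p below 0.05 and none passing the test in limma or voom, and their summed RPKM was 8831 to 18072 with PBS and 1663 to 5764 with LCWE. Their part in the snoRNA levels was not tested, and in a bulk sample fewer cells of a type and less RNA per cell cannot be told apart. The median half-width of the 95% interval was a factor of 1.73.

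Snora24 had the smallest p in intestine. It lies in the noncoding host Snhg8 (chr3:123507937-123508066, - strand) and was at 6.25, 3.36 and 6.35 RPKM with PBS and 12.6, 10.2 and 11.6 with LCWE. The LCWE libraries were all above the PBS ones, a log2 change of 1.08 (SE 0.23) with an adjusted p of 0.224 (limma). Snhg8 itself was at 15.3, 17.8 and 16.3 RPKM with PBS and 17.4, 18.5 and 19.0 with LCWE (log2 change 0.15, adjusted p = 0.497, limma). Snord78 was at 7.14, 8.52 and 6.50 RPKM with PBS and 9.79, 11.4 and 10.7 with LCWE, with no overlap (0.50, adjusted p = 0.238, limma). Gas5, its host, went from 23.7, 25.4 and 23.8 to 22.3, 27.9 and 28.9, with overlap. Snora7a, in the ribosomal protein gene Rpl32, went from 9.73 to 11.1 up to 12.6 to 17.9 RPKM (0.45, adjusted p = 0.331, limma), and Snord91a, in the ribosome assembly gene Tsr1, from 5.32 to 5.71 up to 6.14 to 12.1 (0.74, adjusted p = 0.332, limma). Without LCWE intestine 1, Snord91a passed (1.04, adjusted p = 0.0265, limma), in a fit that called 70 genes over all genes. Among those with a lower mean, Snora30 was at 4.23, 5.04 and 3.55 RPKM with PBS and 2.87, 3.10 and 2.95 with LCWE (-0.45, adjusted p = 0.304, limma). Snord14c, Snora68 and Snord16a followed with log2 changes of -0.82, -0.51 and -0.46 and adjusted p of 0.455, 0.525 and 0.539 (limma).

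Whether LCWE acted differently in the 2 tissues was tested as the liver change minus the intestinal change. No gene of the 73 passed in limma or voom, against 0.736% of the 18619 genes tested in limma, 0.532% higher and 0.204% lower. With an unadjusted p below 0.05 there were 4 in limma and 1 in voom, and the share of all genes there is not given. Of the 73, 22 had a higher and 51 a lower value of this difference, with a median of -0.22 against -0.01 over all genes tested. Snord35a came closest, with a difference of -1.13 (SE 0.24, adjusted p = 0.0589, limma). It passed in 3 of 21 other analyses, with adjusted p from 0.0281 to 0.177 (limma), among them those without LCWE intestine 1 (0.0281) and without LCWE liver 2 (0.0489). Snora28 differed by -0.89 and Snora7a by -0.84, with adjusted p of 0.133 and 0.235 (limma). Among positive differences, Snord2 had the smallest p, at 0.47 (adjusted p = 0.504, limma). Among 64 genes tested in both tissues, 22 had a higher mean with LCWE in both, 14 a lower mean in both, 24 a lower mean in liver and a higher one in intestine, and 4 the opposite.

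The tissues themselves differed more. Of 68 genes tested in the 6 PBS libraries, 26 were called, 5 higher in liver and 21 lower, against 77.6% of all 17253 genes tested, 16.9% higher and 60.7% lower (limma). The PBS groups did not overlap for 5 genes higher in liver and 20 lower (36.8%), against 81.4% of all tested genes, 18% higher and 63.3% lower. The count depends on the scaling, because the median over all genes lay at -0.71 on the log2 scale, so most genes had a lower RPKM in liver. With median-ratio scaling, which takes that shift out, 17 genes were called, 13 higher and 4 lower, against 68.8% of all tested genes, 33.1% higher and 35.7% lower. With quantile scaling 14 were called, 9 higher and 5 lower, against 68.8%, 34.6% higher and 34.2% lower. On the RPKM scale without PBS intestine 2, 17 were called, in a fit that called 9575 genes over all genes. The median of the 68 genes was -0.64 on the RPKM scale and -0.01 after median-ratio scaling, where that of all genes was -0.05. Seen against the median of all genes, the snoRNA genes as a set thus lay close to it in both. The 5 higher (Snora20, Snora28, Snord4a, Snord42a and Snord104) and 3 of the lower ones (Snord2, Snord123 and Snord16a) passed in the same direction under all 3 scalings. Among these, Snora20 and Snora28 met the filter of the test through liver, and Snord123 through intestine. Snora61, Snord57 and Snord96a, lower on the RPKM scale, changed sign with median ratios.

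Snora20 had the largest tissue difference of these genes (chr17:12922790-12922917, + strand). It entered the set and passed the filter of the test through its liver libraries alone, so that it is detected in liver is not a result. In liver it was at 14.9, 41.6 and 38.9 RPKM with PBS and 32.1, 29.2 and 23.2 with LCWE. In intestine it was at 0.205, 0 and 0 RPKM with PBS and 0, 0 and 0.231 with LCWE. The 6 liver libraries held 899 reads of it and the 6 intestinal ones 2. In the PBS groups the ratio of reads, scaled to library totals, was 396, with an exact 95% interval from 70.7 to 15671 that covers counting error only, and the adjusted p was 1.49e-05 (limma). It was the highest of the 73 in both liver groups. It did not change with LCWE in liver beyond the spread (log2 change -0.05, 95% interval -0.97 to 0.86).

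Its host shows no such difference. Snora20 lies in an intron of Tcp1, a subunit of the cytosolic chaperonin, which was at 45.7, 47.4 and 48.2 RPKM in PBS intestine and 49.1, 51.1 and 54.4 in PBS liver (log2 difference 0.13, adjusted p = 0.215, limma). Another short row in the same host, Gm26130 (chr17:12919585-12919722, + strand), was at 10.2, 19.5 and 17.5 RPKM in PBS intestine and 17.0, 35.6 and 25.6 in PBS liver, with overlap (0.70, adjusted p = 0.0859, limma). A neighbour on the opposite strand does differ. Acat3, an acetyl-CoA acetyltransferase gene whose row ends 916 bases from Snora20, was at 10.1, 10.2 and 10.9 RPKM in PBS intestine and 56.9, 60.2 and 59.9 in PBS liver. Whether reads beyond the end of Acat3 reach Snora20 was not tested. Whether the libraries are stranded is not stated by the sources.

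**Figure D4:**
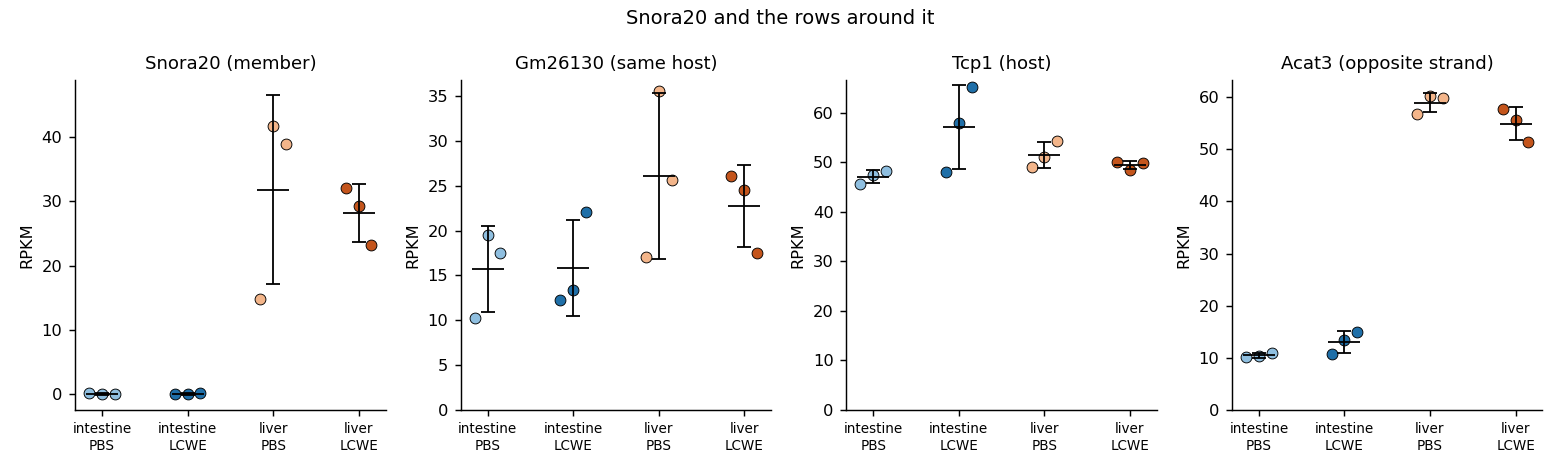
RPKM by library (points, n = 3 per group, with mean and SD as bars) of Snora20, of the short row Gm26130 and the host Tcp1, and of Acat3 on the opposite strand. Snora20 lies at 14.9 to 41.6 in liver and at 0 to 0.231 in intestine, Tcp1 is level between PBS tissues, and Acat3 is at 51.4 to 60.2 in liver and 10.1 to 14.8 in intestine.

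Of the other genes higher in liver, Snord4a and Snord42a lie in introns of Rpl23a (chr11:78181686-78181756 and chr11:78181299-78181363, - strand). Snord4a was at 0.738, 1.76 and 1.39 RPKM in PBS intestine and 12.6, 5.11 and 7.52 in PBS liver. Snord42a was at 1.61, 0 and 1.52 against 6.55, 3.86 and 5.87. The groups did not overlap for either, and the log2 differences were 2.27 and 2.17 with adjusted p of 0.000875 and 0.00982 (limma). The host was lower in liver, with Rpl23a at 1059 to 1199 RPKM in PBS intestine and 510 to 713 in PBS liver. Both genes overlap an exon of Tlcd1 on the opposite strand, which was at 39.6 to 44.7 RPKM in PBS intestine and 23.9 to 37.1 in PBS liver. Snord42b, also in Rpl23a, was at 3.04, 4.53 and 3.35 against 4.87, 2.43 and 4.42 and did not differ beyond the spread (0.06, adjusted p = 0.844, limma).

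Snora28 was at 0.246 to 0.619 RPKM in PBS intestine and 1.40 to 1.76 in PBS liver, on 1 to 3 and 7 to 8 reads (1.23, adjusted p = 0.000744, limma). Snord104 was at 1.497, 4.46 and 1.89 against 6.08, 4.78 and 5.09 RPKM (1.01, adjusted p = 0.0267, limma). The call on Snord104 held in 10 of 15 other analyses, with adjusted p from 0.000814 to 0.0848. It was lost with voom (0.0637) and without PBS intestine 2 (0.0813) or 4 (0.0848) or PBS liver 2 (0.0763) or 4 (0.0557), all adjusted p from limma.

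Among the abundant genes called lower in liver, Snord2 had the smallest p, at 0.290 times the intestinal level (log2 difference -1.79, adjusted p = 0.000135, limma). Its log2 difference was -1.08 against the median of all genes. Its host Eif4a2 was at 46.2, 49.9 and 51.7 RPKM in PBS intestine and 45.6, 36.0 and 38.8 in PBS liver. Snord123, in the noncoding host Snhg18 (chr15:32241853-32241923, - strand), was the one gene listed at 0 in every library of 1 group and at 1 RPKM or more in every library of another. It was at 3.32, 1.76 and 3.25 RPKM in PBS intestine, from 20 reads, and had no read in the PBS livers. It thus passed the filter of this test through intestine alone. Set against a floor of 3 reads over the PBS livers, its intestinal reads, scaled to library totals, were 7.95 times as many. That ratio leaves out the counting error of the 20 reads. In the test Snord123 differed by -2.67 on the log2(RPKM + 0.5) scale (adjusted p = 2.99e-05, limma). With LCWE it had 3 reads in 1 liver library and none in the others. Its host was lower in liver too, at 4.28 to 5.53 RPKM in PBS intestine and 0.308 to 0.482 in PBS liver. Snord16a, in the ribosomal protein gene Rpl4, was at 2.38, 3.47 and 2.001 RPKM in PBS intestine and 0.679, 0.564 and 0.257 in PBS liver, without overlap (-1.64, adjusted p = 0.000574, limma). Snora65 was 0.467 times as high in liver (log2 difference -1.10, adjusted p = 0.000315, limma), a call that was lost with median ratios (-0.31, adjusted p = 0.0677, limma).

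**Figure D5:**
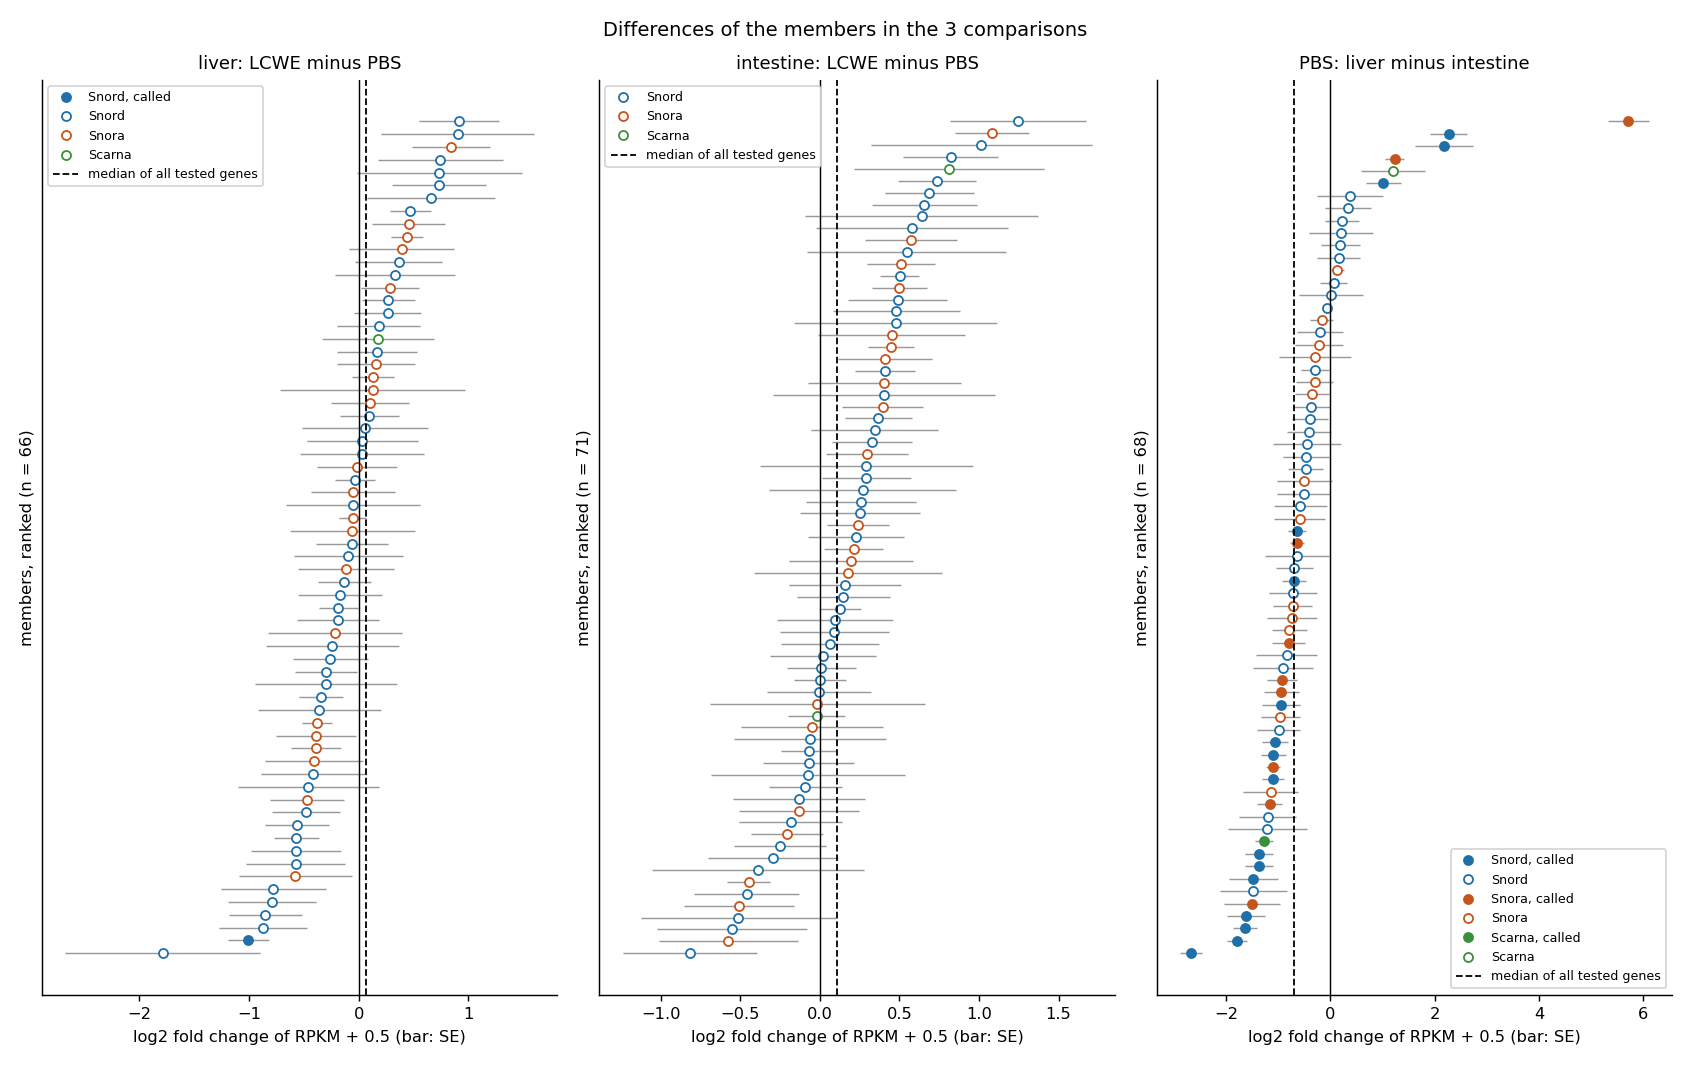
Log2 change of RPKM + 0.5 with its SE for each tested gene, ranked, for LCWE against PBS in liver (n = 66) and intestine (n = 71) and for PBS liver against PBS intestine (n = 68); filled points passed the test, and the dashed line is the median of all tested genes. In liver 1 gene passed, Snord35a, and in intestine none. In the tissue comparison the bulk of the points lies around the dashed line at -0.71, with Snora20 far to the right at 5.72.

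Of the 2 Cajal body RNA genes, 1 was called lower in PBS liver, and that call depended on the scaling. That gene, Scarna2, passed the filter of the test through intestine alone. Scarna2 (chr3:108554338-108554751, - strand) was at 1.01, 1.21 and 0.797 RPKM in PBS intestine and 0, 0.135 and 0.246 in PBS liver, with 16, 16 and 10 reads against 0, 2 and 4 (-1.27, adjusted p = 0.000531, limma; -0.50, adjusted p = 0.109 with quantile scaling). Scarna17 was at 0, 0.791 and 1.67 in PBS intestine and 4.54, 1.41 and 1.29 in PBS liver and overlapped (1.21, adjusted p = 0.111, limma), though it was called higher in liver with median-ratio and quantile scaling. Neither passed with LCWE where tested.

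Across genes, a snoRNA gene and its host were set side by side. In the tissue comparison the log2 difference of the gene and of its host had the same sign in 50 of 62 pairs, with r = 0.41 and a rank correlation of 0.51, where all points share the libraries and the shift of all genes, and several genes share a host. In liver with LCWE 29 of 61 pairs had the same sign (r = -0.20), and in intestine 46 of 65 (r = -0.21). No host passed the test with LCWE, 0 of 47 in liver and 0 of 48 in intestine in limma or voom, against 4.04% and 0% of all genes in limma. At an unadjusted p below 0.05 there were 2 hosts in each tissue (limma), with no share of all genes to set beside them. Between tissues 3 of 48 hosts were called higher in liver and 33 lower, against 16.9% and 60.7%.

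None of the genes for proteins that work with these RNAs passed the test with LCWE. Of the 4 box C/D core proteins, 3 had a higher mean in LCWE liver and 4 in LCWE intestine, and none passed in either (limma). Nop58 came closest in liver, at 4.80 RPKM with PBS and 6.94 with LCWE (0.49, adjusted p = 0.0678, limma), and fibrillarin, the methyltransferase (Fbl), went from 9.34 to 11.1 (0.22, adjusted p = 0.502, limma). Of the 4 box H/ACA core proteins none passed. Gar1 went from 4.44 to 6.57 RPKM in liver (0.52, adjusted p = 0.0808, limma), whereas Dkc1, the pseudouridine synthase, was at 6.72 RPKM with PBS and 6.78 with LCWE. In liver none of 9 tested assembly factors, 7 Cajal body and nucleolar chaperone proteins, 14 noncoding host genes and 19 genes of ribosome biogenesis passed, and in intestine none of 10, 7, 16 and 19 (limma). Of each list between 0 and 4 genes had an unadjusted p below 0.05 in limma, and none was called by voom. Their median log2 changes in liver were 0.13, 0.20, 0.02 and 0.14, and in intestine 0.26, 0.33, 0.12 and 0.24, against 0.06 and 0.11 over all genes. Of the last list, 15 of 19 ribosome biogenesis genes had a higher mean in liver and 19 of 19 in intestine. The share of all genes with a higher mean is not given, so these counts are not read as an excess. In intestine the list summed to 709, 706 and 677 RPKM with PBS and to 664, 856 and 874 with LCWE. LCWE intestine 1 thus lay below each PBS library. Of the ribosome biogenesis genes, Rrp9, a component of the U3 particle, went from 7.22 to 10.05 RPKM in liver (0.44, adjusted p = 0.219, limma). Tcof1, the nucleolar factor treacle, went from 3.33 to 4.42 RPKM in liver (0.36, adjusted p = 0.124, limma), and Coil, the Cajal body scaffold coilin, from 2.48 to 3.77 in intestine (0.51, adjusted p = 0.259, limma).

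Some other short structural RNAs fell in LCWE liver. Of 10 rows of a list of such RNAs tested there, 4 were called lower and none higher, against 0.646% of all genes called lower, and 4 others had a higher mean without passing. The 7SL RNA genes Rn7s1, Rn7s2 and Rn7s6, whose product is the RNA of the signal recognition particle, fell, Rn7s1 from 488, 420 and 429 RPKM to 63.2, 13.5 and 16.1 (log2 change -4.18, adjusted p = 0.0135, limma). As genes of the same RNA they may share reads, and their sequences were not compared here. Rn7sk, the RNA that restrains the elongation factor P-TEFb, fell from 22.7, 11.97 and 9.83 to 3.66, 1.88 and 0.522 RPKM (-2.74, adjusted p = 0.0437, limma). Rnu3a, a gene of the box C/D RNA U3 whose name lies outside the rule, was at 33.5, 51.9 and 31.4 RPKM in PBS liver and at 8.37, 2.50 and 0.269 in LCWE liver, without overlap (-3.81, adjusted p = 0.0538, limma). In intestine it was at 59.5, 14.01 and 10.5 with PBS and 6.27, 2.16 and 0.828 with LCWE (-2.88, adjusted p = 0.273, limma). The other U3 rows tested had higher means with LCWE. Rnu3b3 changed by 0.08 in liver and 0.70 in intestine, and Rnu3b4 by 0.43 and 0.70, at 0 to 6.83 RPKM and with no adjusted p below 0.528 (limma). None of the 66 snoRNA genes tested in liver had a called change of that size.

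The leukocyte markers rose in LCWE liver, 4 of 4 tested genes of 6 being called, against 4.04% of all tested genes, 3.39% higher. The 6 markers had a summed RPKM of 75.7 to 104 with PBS and 261 to 285 with LCWE. Their part in the liver values of the snoRNA genes was not tested. The authors' deposited table of differential genes lists 1001 genes, and none of the 126 Snord, Snora or Scarna rows is among them.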

How the data were processed

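RNA was extracted with TRIzol and DNase-treated, and libraries followed the standard Illumina protocol, per the labels' protocols. As tools, with no role stated, the submitters' processing notes list Trimmomatic 0.36, Subread 1.5.1 with featureCounts, and edgeR 3.12.1, with mm10 as the build. The sources used here give no aligner, strand setting or handling of overlapping rows. The authors deposited RPKM per gene; 12 of 16 library columns matched a labelled sample, and 4 were not used. RPKM times length gave whole reads for 100% of values (tolerance 0.001). The deposited differential table holds the authors' log2 fold changes and p-values and was used only to look for the genes described.

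Rows with RPKM of at least 0.5 in 3 libraries of a fit were tested on log2(RPKM + 0.5), which understates changes of low genes, with limma 3.58.1 in R 4.3.3 (eBayes with trend, two-sided), Benjamini-Hochberg adjusted over all tested genes and called below 0.05. Each tissue was fitted alone; the difference between tissues used all 12 libraries. An exact permutation test of 3 against 3 could not pass the threshold, so none was run. Counts at an unadjusted p below 0.05 are given without the share of all genes there, so none is read as an excess. Hosts were rows on the same strand that span the gene; exons came from the table's positions. Sequences came from the GENCODE M21 transcripts of mm10, for 69 of 73 genes. Intervals of ratios cover counting error only, and a ratio to the floor of 3 reads leaves out the error of the other count.

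The genes named are the 10 highest, the 4 of smallest p per direction and comparison, the Cajal body RNA genes, the gene at 0 in a group, and the 3 of smallest p per list, as far as a result turns on them, with neighbouring rows, other genes of a host and Snord66 added after their values were seen. The genes and lists were chosen with earlier results of these data known. The script was tested on simulated data. Snhg10 and Snhg16 were not analysed here, and Snu13 was read under its older symbol Nhp2l1. A result on 1 gene pair is not reported here.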

Additional observations from a re-analysis of the deposited data

How the results depend on the processing

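The alternatives were a pseudocount of 0.1 or 1, dropping the filter or raising it to RPKM 1, scaling by median ratios or quantiles, robust eBayes, voom on recovered reads, blocking on the replicate number, 1 fit over 4 groups, and leaving out each library. The planned edgeR and DESeq2 analyses of recovered reads were not run.

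For liver LCWE against PBS the count of 1 called gene became 0 with voom, 0 without a filter and 0 with the replicate block, and was 0 to 3 with a library left out (3, with Snord14e and Snord66, without PBS liver 2, and 0 without any other). For intestine LCWE against PBS it was 0 to 1 (1, Snord91a, without LCWE intestine 1). For control liver against control intestine the count of 26 became 17 with median-ratio and 14 with quantile scaling, and was 17 to 25 with a library left out (17 without PBS intestine 2). For the difference of the LCWE effect between tissues it was 1 with median-ratio scaling and 0 to 1 with a library left out (1, Snord35a, without LCWE intestine 1 or LCWE liver 2). With median ratios the log2 differences of Snora61, Snord57 and Snord96a between control tissues turned to 0.14, 0.14 and 0.10, and that of the summed level to 0.41; the cause of the other moves was not tested.

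Over all genes, the 582 calls in liver ranged from 55 to 943 with a library left out, the 943 being without PBS liver 2. They were 24 with the block, 335 without a filter and 987 with 1 fit over 4 groups. In intestine the 0 ranged to 70, reached without LCWE intestine 1, and was 243 with 1 fit. The 137 of the difference ranged from 20 to 461 and were 12 with the block and 206 with median ratios. Same-numbered libraries showed little joint deviation (r of -0.10 and -0.05 in liver, 0.09 and 0.12 in intestine, -0.08 to 0.09 between PBS tissues). Between LCWE tissues r was 0.007 to 0.040. With 3 libraries per group these values cannot settle whether the numbers pair libraries. The block gave 25 calls between control tissues and 0 for the other comparisons. Of the values of these genes 53.5% rested on fewer than 10 reads, and there were 3 libraries per group. The parts of read depth and of the spread between libraries in the interval widths were not separated. The median 95% half-width was a factor of 1.83 between tissues and 2.56 for the difference.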

Other observations

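Other kinds of short or unpolyadenylated transcripts in the same libraries are given as values. Of 279 rows named as microRNA genes and tested in liver, 9 were called higher with LCWE and 1 lower (limma; voom called 4 higher), against 3.39% and 0.646% of all genes. Mir704 went from 46.5 RPKM with PBS to 98.1 with LCWE (log2 change 1.07, adjusted p = 0.00557, limma), and Mir142b from 0.788 to 3.28 (1.56, adjusted p = 0.00557, limma). Such a row can hold reads of the longer transcript it lies in. In intestine 0 of 366 were called in limma or voom, with 51 at an unadjusted p below 0.05 in limma. The share of all genes below that p is not given, so the 51 are not read as an excess. Of 15 replication-dependent histone genes tested in liver, whose messenger RNAs lack a poly(A) tail, none was called in limma or voom, 2 had an unadjusted p below 0.05 in limma, and 11 had a higher and 4 a lower mean with LCWE.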
